A study of Mus musculus with 10 samples.

Results

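Transcripts of 9 complement genes were followed in the mouse eyeball, out of 24736 gene symbols in the deposited mRNA table. The 9 were listed by symbol, and each was found in the table and passed the filter on low counts. They are C1qa, C1qb and C1qc for the chains of C1q, C4b and C2 of the classical pathway, the central component C3, Cfb of the alternative pathway, and the regulators Cfi and Serping1. The blue light group comprised 3 libraries (blue A, B and C) from eyeballs of mice lit by a lamp of 18 W inside a dark container. The natural light group comprised 2 libraries (natural A and B) from eyeballs of control mice. All mice were female, of the outbred Kunming stock and labelled as 4 weeks old, no genotype is given, and the sample titles of both groups carry day 14. Whether each library stands for its own animal or a pool is not stated, so each p-value reflects the spread among these libraries alone, and that spread may be technical.

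Complement is a cascade of plasma and tissue proteins that tags cells and debris for removal. C1q binds to a target and activates the proteases C1r and C1s, which cut C4 and C2 into an enzyme that cleaves C3. C3 fragments bound to the target are amplified by factor B and read by receptors on phagocytes, while factor I, C1 inhibitor and other regulators limit the cascade. In the retina C1q is known mainly as a product of microglia, and other components are made by glia, the pigment epithelium and cells of the blood vessels.

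RNA was sequenced after ribosomal RNA depletion, and the 5 libraries summed to between 87071487 and 107660103 estimated counts. Levels below are estimated counts scaled to a common library total after TMM normalisation (CPM). Since CPM is not corrected for transcript length, levels are compared between libraries and not between genes. Fold changes are blue light over natural light on the log2 scale. Their standard error (SE) was derived from the log2 fold change and the F value of its test, so it adds no information to the p. The test was edgeR's quasi-likelihood F-test, and its p-values were adjusted by the Benjamini-Hochberg method over the 18988 genes tested, with a threshold of 0.05. The whole eyeball was represented: all 10 rod markers, all 8 lens markers, all 6 markers of corneal and conjunctival epithelium and 7 of 8 pigment epithelium markers averaged at least 1 CPM in natural light. In such bulk RNA more cells of a type and more RNA per cell cannot be told apart.

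Promoter sequence was found for 3 of the 9 genes in the RefSeq promoter table (GRCm38.p6, the build called mm10). The bases upstream of the annotated start are shown because C1qb and C1qc lie next to each other and had similar profiles over the libraries, and C3 is where the pathways meet. The windows are chr4:136886201-136886450 for C1qb, chr4:136892937-136893164 for C1qc and chr17:57228137-57228386 for C3, each on the minus strand and written 5′ to 3′ along the gene. Capitals mark a match to the letters of a C/EBP motif (TTGCGNAA).
C1qb: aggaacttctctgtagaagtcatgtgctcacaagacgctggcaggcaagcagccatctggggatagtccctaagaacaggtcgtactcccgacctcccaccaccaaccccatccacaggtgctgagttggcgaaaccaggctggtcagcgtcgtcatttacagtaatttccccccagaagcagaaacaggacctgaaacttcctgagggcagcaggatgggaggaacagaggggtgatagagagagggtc
C1qc: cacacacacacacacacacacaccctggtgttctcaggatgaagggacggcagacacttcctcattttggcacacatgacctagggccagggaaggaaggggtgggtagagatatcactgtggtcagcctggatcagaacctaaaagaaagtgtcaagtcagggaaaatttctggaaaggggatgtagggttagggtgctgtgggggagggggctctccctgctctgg
C3: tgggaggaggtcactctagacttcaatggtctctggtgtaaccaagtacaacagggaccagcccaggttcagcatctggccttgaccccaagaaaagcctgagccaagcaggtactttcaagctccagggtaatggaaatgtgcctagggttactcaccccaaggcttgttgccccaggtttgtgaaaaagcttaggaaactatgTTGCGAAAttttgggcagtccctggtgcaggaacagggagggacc
The C/EBP letters were found once, in the C3 window, starting 45 bases before the gene, and 0.67% of 32851 promoters held them in the 250 bases before their start. No match was found on either strand of the 3 windows for a STAT motif (TTCNNNGAA), an interferon response motif (GAAANNGAA), an NF-kB motif (GGNNTTTCC) or a PU.1 motif (AGAGGAAG), which occurred in 7.02%, 7.13%, 4.93% and 3.67% of promoters. A looser NF-kB spelling, GGG and TCC with 4 bases between them, was found in all 3 windows and in 16.5% of promoters.

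Of the 9 genes, 2 rose under blue light, Cfi and C4b, and 0 fell. Over all genes tested 0.664% were called higher and 1.55% lower. Levels of 7 of the 9 were higher in every blue library than in both natural libraries, whereas C2 and Cfb overlapped between the groups. That pattern was found in 15.6% of all genes tested. The log2 fold changes ran from -0.15 for C2 to 5.30 for Cfi with a median of 1.46, beside a median of -0.0056 over all genes tested. Beyond the 2 called genes, C1qa, C1qb, C1qc, C3 and Serping1 had an unadjusted p under 0.05, which 7.03% of all genes had in that direction. The 2 calls are sensitive to single libraries: 1 gene was called without blue A and 0 without blue C, natural A or natural B, while 3 were called without blue B. DESeq2 called 7 of the 9 genes higher, where 4.73% of all genes were, and limma-voom called 1, where 0.69% were.

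**Figure D1:**
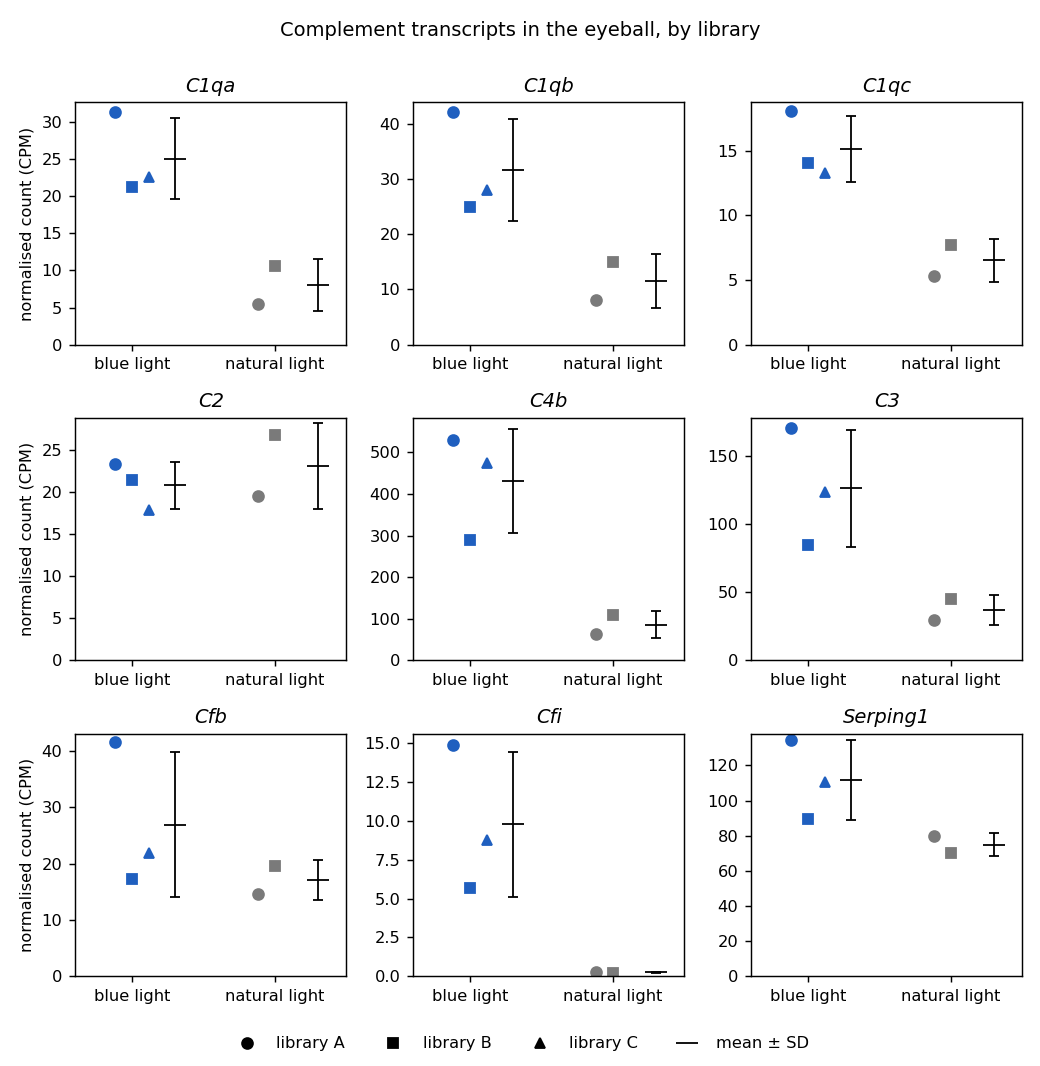
Level of each of the 9 complement genes in CPM (linear axis from 0) in each library, under blue light (3 libraries) and natural light (2 libraries), with the mean ± SD to the right of the points. Cfi stayed under 0.3 CPM in natural light and lay between 5.72 and 14.9 CPM in blue light, while C2 and Cfb overlapped between the groups.

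The C1q chains, which together form the recognition molecule of the classical pathway, were higher in every blue library but did not pass the threshold. Their genes lie side by side on chromosome 4 (mm10), C1qb from 136880126 to 136886200, C1qc from 136889801 to 136892936 and C1qa from 136895916 to 136898844. C1qa stood at 31.3, 21.3 and 22.7 CPM in blue A, B and C, against 5.53 and 10.5 CPM in natural A and B. C1qb stood at 42.2, 24.9 and 28.03 CPM in the blue libraries, against 8.06 and 15.0 CPM in the natural libraries. C1qc stood at 18.1, 14.1 and 13.3 CPM in the blue libraries, against 5.33 and 7.70 CPM in the natural libraries. All 3 chains were highest in blue A and lowest in natural A, and no blue library reached down to natural B. In edgeR C1qa had a log2 fold change of 1.65 (SE 0.32, adjusted p = 0.0749), C1qb 1.46 (SE 0.35, adjusted p = 0.117) and C1qc 1.22 (SE 0.22, adjusted p = 0.0622). In DESeq2 all 3 chains passed, with adjusted p-values of 3.51e-06, 0.000155 and 7.93e-06.

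The proportions of the chains were compared as ratios of CPM. The ratio of C1qa to C1qb was 0.743, 0.856 and 0.808 in blue A, B and C, against 0.687 and 0.705 in natural A and B. The ratio of C1qc to C1qb was 0.429, 0.565 and 0.474 in the blue libraries, against 0.661 and 0.515 in the natural libraries. The first ratio did not overlap between the groups (exact permutation test, 2-sided, p = 0.2, the smallest that 3 against 2 libraries allow) and the second did (p = 0.4 in the same exact test).

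Since C1q is a microglial product, it was set beside 14 marker genes of microglia and macrophages. All 14 were tested, none was at 0 in any group, and 10 had every blue library above both natural libraries, as had 15.6% of all genes tested. Their summed level was 416, 292 and 321 CPM in blue A, B and C, against 167 and 211 CPM in natural A and B. Csf1r, the receptor for the growth factor that sustains these cells, stood at 77.7 ± 8.36 CPM in blue light (SD, n = 3) and 45.1 ± 8.26 CPM in natural light (SD, n = 2; adjusted p = 0.0661 in edgeR). P2ry12, a purine receptor of resting microglia, stood at 4.33 ± 1.63 CPM in blue light and 5.25 ± 0.263 CPM in natural light, and its groups overlapped.

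Summed over the chains, C1q stood at 91.6, 60.2 and 64.0 CPM in blue A, B and C, against 18.9 and 33.2 CPM in natural A and B. Divided by the summed markers it was 0.220, 0.206 and 0.200 in the blue libraries, against 0.113 and 0.157 in the natural libraries. C1q was thus higher relative to the marker sum in each blue library, with an exact permutation p of 0.2, the smallest possible. Divided by Tyrobp alone, the adaptor that signals for Trem2, it was 10.2, 8.50 and 9.61 in the blue libraries, against 9.12 and 8.47 in the natural libraries, and the groups overlapped (exact permutation p = 0.4). The part of the marker levels in the C1q values was not tested.

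**Figure D2:**
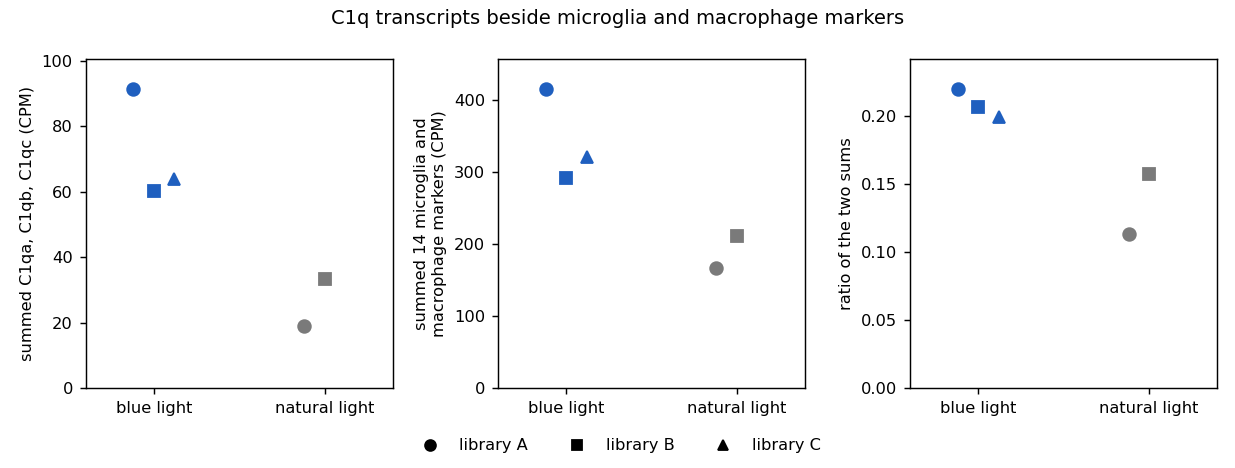
Summed CPM of C1qa, C1qb and C1qc (left), summed CPM of 14 microglia and macrophage markers (middle) and their ratio (right) in each library, all on linear axes from 0. Both sums and the ratio lay higher in the 3 blue libraries than in the 2 natural libraries, with ratios of 0.200 to 0.220 against 0.113 and 0.157.

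The tested genes whose profiles over the 5 libraries were closest to the mean of the C1q chains were Mpeg1, which encodes a pore-forming protein of macrophages, Bin2 and Tyrobp. Their root mean square distances were 0.0836, 0.0837 and 0.0898 on the log2 CPM scale. Mpeg1 stood at 57.0, 38.3 and 41.2 CPM in blue A, B and C, against 13.7 and 24.1 CPM in natural A and B. None of these genes passed the threshold in edgeR, with adjusted p = 0.110 for Mpeg1, 0.125 for Bin2 and 0.115 for Tyrobp.

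The genes of C1r and C1s, the proteases that C1q activates, did not pass the threshold either. C1ra stood at 33.5 ± 9.19 CPM in blue light and 25.9 ± 5.85 CPM in natural light (log2 fold change 0.37, adjusted p = 0.553 in edgeR). Summed over C1ra, C1rb, C1s1 and C1s2 the proteases stood at 127, 82.9 and 94.3 CPM in blue A, B and C, against 74.5 and 100.3 CPM in natural A and B, and the groups overlapped. Serping1, on chromosome 2 from 84765360 to 84775444, encodes C1 inhibitor, which inactivates C1r and C1s. It stood at 134.6, 89.3 and 110.8 CPM in the blue libraries, against 79.8 and 70.2 CPM in the natural libraries. Each blue library was above both natural ones, but blue B exceeded natural A by less than the spread among the blue libraries. The log2 fold change of Serping1 was 0.57 (SE 0.18), with an adjusted p of 0.200 in edgeR and 0.0241 in DESeq2. Its level divided by that of the protease sum was 1.06, 1.08 and 1.17 in the blue libraries, against 1.07 and 0.700 in the natural libraries, and did not separate the groups.

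C4b rose. It encodes complement C4, the substrate of C1s, and lies on chromosome 17 from 34728139 to 34743902. C4b stood at 529, 291 and 476 CPM in blue A, B and C, against 62.5 and 109 CPM in natural A and B. The lowest blue library was well above the higher natural one. The mean was 432 ± 125 CPM in blue light (SD, n = 3) and 85.9 ± 33.1 CPM in natural light (SD, n = 2), a log2 fold change of 2.33 (SE 0.36, adjusted p = 0.0386 in edgeR), or 5.03-fold. C4b also passed in DESeq2 (adjusted p = 1.66e-12) and limma-voom (adjusted p = 0.0284). It missed the threshold in edgeR without blue A (adjusted p = 0.0623), blue C (0.132), natural A (0.216) or natural B (0.108), with log2 fold changes between 2.01 and 2.79 when 1 library was left out.

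A near-identical copy, C4a, lies on the same chromosome from 34809092 to 34823460, and RefSeq lists it as a transcribed pseudogene in this build. Reads may be divided between the copies, so the values of each are uncertain. C4a stood at 42.8, 22.4 and 39.8 CPM in blue A, B and C, against 6.14 and 12.8 CPM in natural A and B (log2 fold change 1.89, adjusted p = 0.101 in edgeR). It made up 7.47%, 7.16% and 7.72% of the pair in the blue libraries, against 8.94% and 10.5% in the natural libraries. With both copies summed the log2 fold change was 2.29 (adjusted p = 0.0421 in edgeR). Apart from C4a, the profiles closest to C4b were those of Enpp6, a choline-specific phosphodiesterase, and Ctss, the lysosomal cathepsin S of antigen-presenting cells, at distances of 0.157 and 0.229 against 0.222 for C4a. Ctss, with 72.7 ± 19.1 CPM in blue light and 19.0 ± 8.97 CPM in natural light, is also among the 14 microglia and macrophage markers.

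C2 differed from its partner C4b. It encodes the protease that joins C4 in the classical C3-cleaving enzyme and lies on chromosome 17 from 34862602 to 34882100. C2 stood at 23.3, 21.4 and 17.8 CPM in blue A, B and C, against 19.5 and 26.8 CPM in natural A and B. The natural libraries lay on either side of blue A and B. Its log2 fold change was -0.15 (SE 0.18, adjusted p = 0.747 in edgeR), and 0.09 without natural B, so that no direction was resolved.

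C3, on chromosome 17 from 57203967 to 57228136, encodes the component on which all pathways converge. It stood at 171, 84.6 and 124 CPM in blue A, B and C, against 29.4 and 44.9 CPM in natural A and B. Every blue library exceeded both natural ones, with blue A the highest and blue B the lowest of the blue libraries. The mean was 126 ± 43.1 CPM in blue light (SD, n = 3) and 37.2 ± 11.0 CPM in natural light (SD, n = 2). The log2 fold change of 1.77 (SE 0.34) missed the threshold in edgeR (adjusted p = 0.0707) and passed it without blue B (2.01, adjusted p = 0.0473), with library totals as the only scaling (adjusted p = 0.0453) and in DESeq2 (adjusted p = 2.49e-07). The ratio of C4b to C3 was 3.10, 3.43 and 3.85 in the blue libraries, against 2.13 and 2.43 in the natural libraries, without overlap (exact permutation p = 0.2, the smallest possible).

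Cfb encodes factor B, the protease of the alternative pathway's C3-cleaving enzyme, and lies on chromosome 17 from 34856374 to 34862514, directly beside C2. Cfb stood at 41.6, 17.3 and 21.9 CPM in blue A, B and C, against 14.6 and 19.7 CPM in natural A and B. Blue A stood apart at the top, and blue B lay between the natural libraries. The log2 fold change was 0.66 (SE 0.39, adjusted p = 0.478 in edgeR), and 0.22 without blue A. Relative to C3, Cfb was lower in blue light, with a ratio of 0.244, 0.205 and 0.177 in the blue libraries, against 0.495 and 0.438 in the natural libraries (exact permutation p = 0.2, the smallest possible).

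Cfi rose. It encodes factor I, the protease that cuts C3b and C4b once a cofactor holds them, and lies on chromosome 3 from 129836727 to 129875332. The deposited estimated counts were 1503, 614 and 798 in blue A, B and C, against 30 and 18 in natural A and B. In CPM these were 14.9, 5.72 and 8.77 in the blue libraries, against 0.270 and 0.222 in the natural libraries. The natural libraries were close to each other, while the blue libraries differed among themselves, blue A being the highest. The means were 9.79 ± 4.66 CPM in blue light (SD, n = 3) and 0.246 ± 0.0333 CPM in natural light (SD, n = 2), a log2 fold change of 5.30 (SE 0.53, adjusted p = 0.0183 in edgeR).

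By p-value Cfi ranked 67 of 18988 genes. It passed in DESeq2 (adjusted p = 3.58e-27) but not in limma-voom (adjusted p = 0.127). In edgeR it passed without blue A (adjusted p = 0.0115) and without blue B (0.0255), but not without blue C (0.0786), natural A (0.161) or natural B (0.112), with log2 fold changes between 4.88 and 5.59 in these fits. A long noncoding RNA, Gm36180, is annotated inside the Cfi span (129844236 to 129847202) and was not analysed here, so its reads cannot be told apart from those of Cfi. The closest profiles were those of the lipocalin Lcn2, the peptide endothelin 2 (Edn2) and the neuronal intermediate filament Prph, at larger distances than for the other genes, 0.481, 0.698 and 0.950 on the log2 CPM scale. Lcn2 stood at 38.3, 27.7 and 51.4 CPM in the blue libraries, against 1.96 and 1.20 CPM in the natural libraries.

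The other genes of the system numbered 48, of which 40 were tested and 4 (Mbl1, Mbl2, Fcnb and C9) were at 0 in every library. Of the 40, 2 rose and 2 fell in edgeR, where 0.664% of all genes tested were called higher and 1.55% lower, and 28 had a log2 fold change above 0, as did 49% of all genes tested. Their median was 0.27. Clu, which encodes clusterin, an inhibitor of the terminal complex, stood at 1342 ± 131 CPM in blue light (SD, n = 3) and 671 ± 24.4 CPM in natural light (SD, n = 2), with a log2 fold change of 0.9998 (SE 0.11, adjusted p = 0.0185 in edgeR). Cfd, the gene of factor D, which activates factor B, stood at 1.79 ± 0.574 CPM in blue light and 0.304 ± 0.0240 CPM in natural light (log2 fold change 2.55, adjusted p = 0.0468 in edgeR). Vtn, the gene of vitronectin, also an inhibitor of the terminal complex, fell to 81.8 ± 14.0 CPM in blue light, against 195 ± 8.84 CPM in natural light (log2 fold change -1.25, adjusted p = 0.0218 in edgeR). Csmd1, a membrane protein with complement control domains, fell to 19.6 ± 3.31 CPM in blue light, against 44.8 ± 3.35 CPM in natural light (log2 fold change -1.19, adjusted p = 0.0258 in edgeR). In the same libraries 9 of 10 rod markers fell in edgeR, where 1.55% of all genes tested were called lower. The rod markers summed to 4393, 8162 and 6407 CPM in blue A, B and C, against 24550 and 23370 CPM in natural A and B. The part of this fall in the values of Vtn, Csmd1 and the other complement genes was not tested.

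The 4 calls depended on the method and also rested on few libraries. All 4 passed in DESeq2. In limma-voom Clu, Vtn and Csmd1 passed but Cfd did not (adjusted p = 0.118). With the letters A, B and C as a replicate block, 0 of the 40 passed in edgeR. Without blue C, natural A or natural B, 0 of the 40 passed in edgeR, and Cfd missed the threshold without blue A (adjusted p = 0.103).

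Among the 9 receptor genes all had a positive log2 fold change, as had 49% of all genes tested. These ran from 0.03 to 2.545 with a median of 0.92. In edgeR 0 passed, where 0.664% of all genes tested were called higher. Every blue library was above both natural ones for 6 of the 9, as for 15.6% of all genes tested, and 3 overlapped. The p was under 0.05 before adjustment for 5 of the receptor genes, as for 7.03% of all genes in that direction. DESeq2 called 3 higher, where 4.73% of all genes were, and limma-voom called 0, where 0.69% were. Itgax, the alpha chain of complement receptor CR4, stood at 3.08 ± 0.968 CPM in blue light and 0.694 ± 0.213 CPM in natural light (log2 fold change 2.14, adjusted p = 0.0585 in edgeR). C5ar2, a receptor for the C5 fragment C5a, stood at 0.446 ± 0.127 CPM in blue light and 0.0764 ± 0.0318 CPM in natural light (adjusted p = 0.124 in edgeR). Of the terminal components, C6 stood at 1.59, 0.689 and 0.967 CPM in blue A, B and C, against 0.144 and 0.841 CPM in natural A and B. Hc, the gene of C5, stayed under 1 CPM in every library, as did C7 and C8a. C7 was higher in every blue library than in both natural libraries and C8a lower, but neither passed in edgeR (adjusted p = 0.366 and 0.387).

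**Figure D3:**
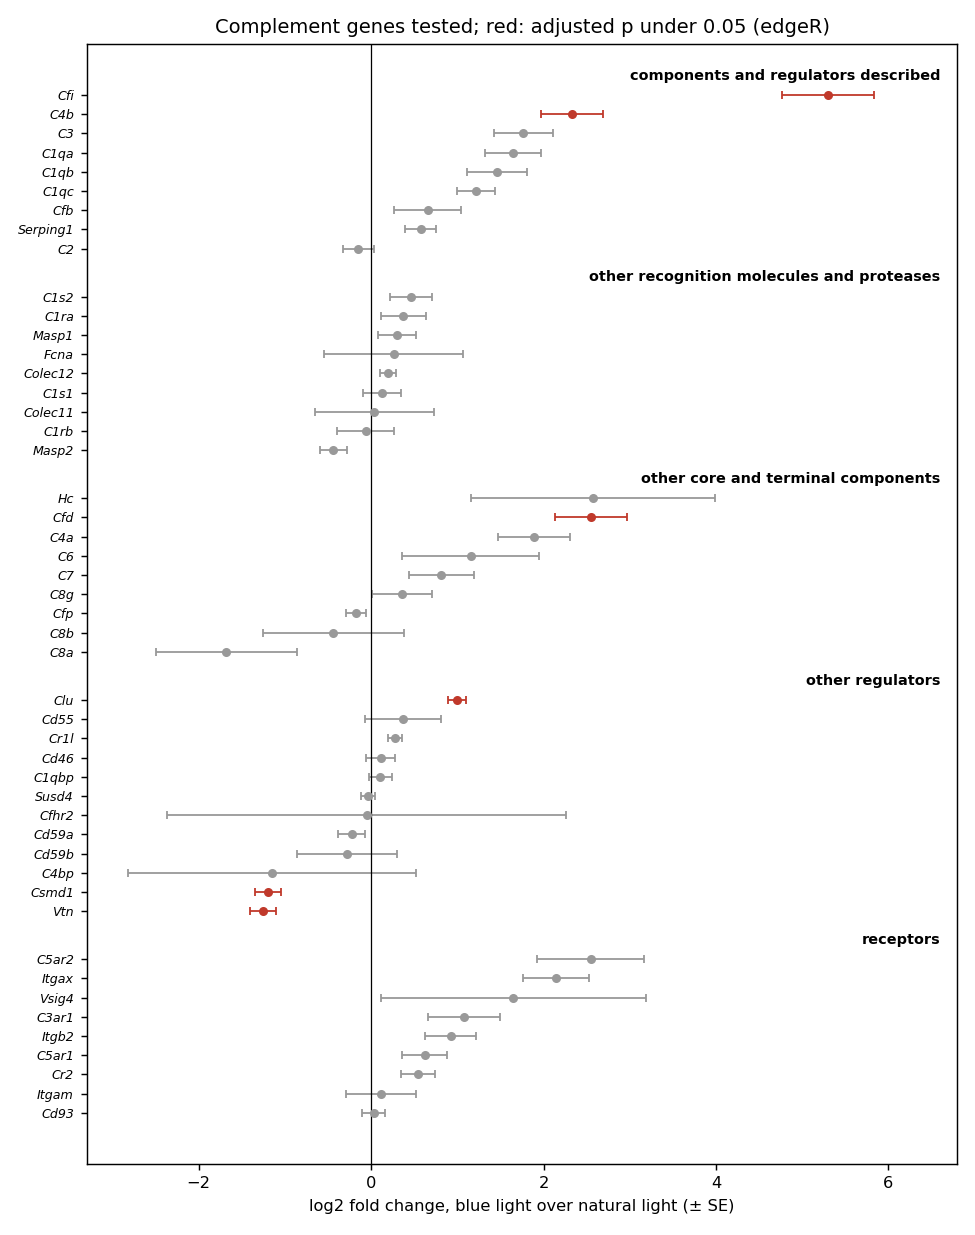
Log2 fold change ± SE, blue light over natural light, of the 9 complement genes described (top) and of other complement genes tested, in groups by role. Red points passed an adjusted p of 0.05 in edgeR: Cfi, C4b, Cfd and Clu lay to the right of 0 and Csmd1 and Vtn to the left.

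Markers of other sources of complement were read in the same libraries. Of 10 genes of liver plasma proteins, another major source of complement, 6 were tested, Fgb was at 0 in every library, and Alb did not exceed 0.177 CPM. Every blue library was above both natural ones for 2 of the 6, as for 15.6% of all genes tested, and 4 overlapped. Serpina1a, 1 of these 2, stood at 0.287, 0.261 and 0.165 CPM in blue A, B and C. It was at 0 in both natural libraries (adjusted p = 0.0699 in edgeR). The sum of this list, 577, 495 and 621 CPM in the blue libraries, against 453 and 424 CPM in the natural libraries, was made up almost wholly of Ttr, which pigment epithelium also makes. Of 12 adipocyte genes, whose cells make factor D and C3, 1 was called higher in edgeR, where 0.664% of all genes tested were. That gene was Cfd itself, which is both on this list and among the complement genes. Their sum was 93.9, 76.6 and 81.2 CPM in blue A, B and C, against 53.8 and 67.9 CPM in natural A and B, and most of it came from Lpl and Plin4, which other tissues also express. Every blue library was above both natural ones for 6 of the 12, Cfd among them, as for 15.6% of all genes tested. Retn was lower in every blue library, and 5 overlapped. Cidec and Lep were at 0 in both natural libraries, and Lep also in blue B. The part of adipose tissue in the values of C3 and Cfd was not tested. Skeletal muscle genes summed to 1451, 744 and 774 CPM in the blue libraries, against 702 and 1514 CPM in the natural libraries, so that the groups overlapped.

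The order of the libraries was shared by most of the 9 genes. Blue A was the highest library for 8 of the 9 genes, natural A the lowest for 6, and blue B the lowest blue library for 7. Blue A was also the highest library for some genes of surface epithelium and connective tissue, but not for all that were read. Krt12 and Aldh3a1 were highest in blue B, Col1a1 in natural A, and Col1a2 and Lum in natural B. The other genes read for these tissues were highest in blue A. The keratin gene Krt4 stood at 168, 47.6 and 28.7 CPM in blue A, B and C, against 45.9 and 61.7 CPM in natural A and B. The collagen gene Col3a1 stood at 1168, 351 and 436 CPM in the blue libraries, against 464 and 896 CPM in the natural libraries. The part of these tissues in the high values of blue A, that of Cfb among them, was not tested. Genes stimulated by interferon, 18 in number, summed to 1575, 514 and 1153 CPM in blue A, B and C, against 262 and 443 CPM in natural A and B, with blue B again lowest among the blue libraries. Genes of reactive glia, 14 in number, summed to 2291, 2394 and 2368 CPM in the blue libraries, against 1182 and 1209 CPM in the natural libraries. These sums differed little within a group, but single genes could differ more. Lcn2, for example, stood at 38.3, 27.7 and 51.4 CPM in blue A, B and C. Of the reactive glia genes 12 rose in edgeR, where 0.664% of all genes tested were called higher. For the interferon genes edgeR called 0, although 14 had a p under 0.05 before adjustment, as had 7.03% of all genes in that direction. DESeq2 called 10 of the interferon genes higher and limma-voom 0, where 4.73% and 0.69% of all genes were. Every blue library was above both natural ones for 13 of them, as for 15.6% of all genes tested, and 5 overlapped between the groups. The sums of both lists were higher in every blue library, and their part in the complement values was not tested.

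**Figure D4:**
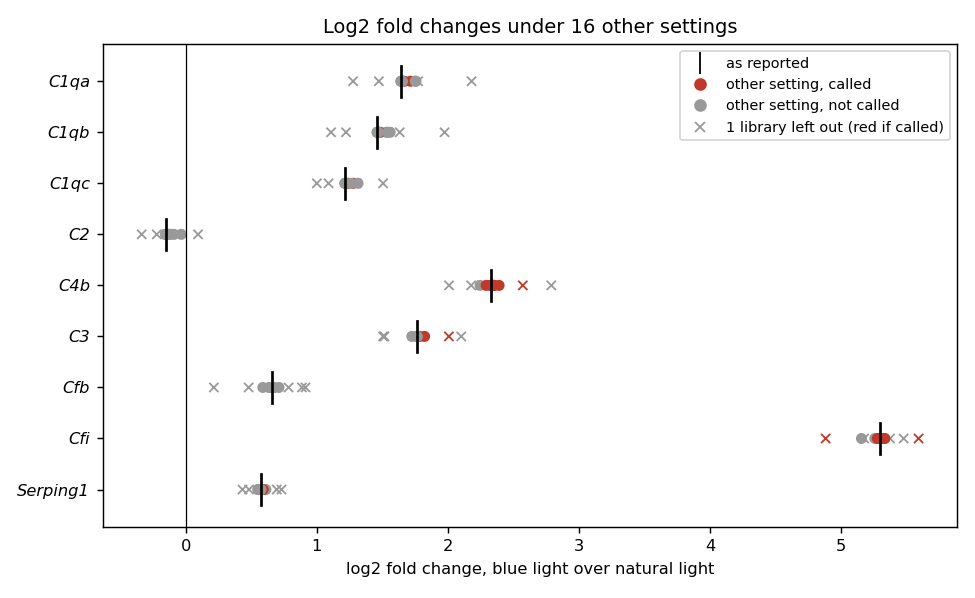
Log2 fold change, blue light over natural light, of each of the 9 complement genes as reported (black bar) and under 16 other settings of normalisation, filter, test and libraries used (circles, and crosses where 1 library was left out). Red marks a setting in which the gene was called: C4b and Cfi were called in 11 of 16, and C2 is the gene whose values lay on both sides of 0.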

How the data were processed

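The mRNA table holds estimated counts per gene symbol, taken as deposited and not normalised by the authors. They are whole numbers, so rounding changed nothing. Per the submitters' processing notes the tools included HISAT2, StringTie, limma, DESeq2 and bcl2fastq 2.0, with mm10 as the build, but their roles and the counting rule and strand setting are not given in the sources used here. Over all libraries 1051 values equal 4 and 751 equal 3, so 1 fragment may add more than 1 unit, and no counting intervals are given.

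Columns were matched to samples by title. Groups were compared in edgeR 4.0.16 (R 4.3.3) with TMM scaling, filterByExpr and the quasi-likelihood F-test, without a block for the letters A, B and C. DESeq2 1.42.0 and limma-voom (limma 3.58.1) were alternatives. Ratios were compared with exact permutation tests, 2-sided, over 14 ratios computed, with a lowest Benjamini-Hochberg adjusted p of 0.28. On simulated counts for this comparison (18988 genes, 200 of them changed), the pipeline called 38.8% of the genes changed 2-fold and 82.7% of those changed 4-fold, among changed genes left by its filter. Unchanged genes made up 12.5% of its calls.

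All 9 genes are named, and of 48 further complement genes the 8 with the smallest p and those that passed; some genes are not reported here. C1ra, C6, C7, C8a, Hc, Cfhr2, Itgam, P2ry12, Retn and Serpina1a were named after their values were seen. So were Krt4, Krt12, Aldh3a1, Col1a1, Col1a2, Col3a1 and Lum. The likeness rule took the 3 genes closest by root mean square distance of centred log2 CPM, with a mean of at least 1 CPM. The 9 genes, the lists and the motifs were chosen with earlier results of these data known. The miRNA table was not used here.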

Additional observations from a re-analysis of the deposited data

How the results depend on the processing

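C4b and Cfi kept a positive log2 fold change in all 16 alternatives and were called in 11 of them. Of the 9 genes, 5 were called with library totals as the only scaling (C1qa, C1qc and C3 in addition), 7 in DESeq2 and 1 in limma-voom. Leaving out 1 library gave between 0 and 3 called genes among the 9, and between 0 and 311 over all genes, where 421 passed in the fit as reported. A fit with 1 natural library takes its spread from the blue libraries alone. In edgeR without natural B 0 genes passed, with 2872 at an unadjusted p under 0.05. Over all genes 274 passed with library totals as the only scaling, 1729 in DESeq2 and 198 when a log2 fold change of 1 or more in size was also required. The share of higher calls was 124 of 274 with library totals, against 126 of 421 as reported. C2 alone reversed, to 0.0945 without natural B, and ranged from -0.3355 to 0.0945 with 1 library left out. The cause of these shifts was not tested.

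With the letter as a replicate block, 0 of the 9 genes and 0 genes in all passed in edgeR, with 7 and 1455 at an unadjusted p under 0.05. The labels do not say that the letters pair the libraries, and deviations of same-lettered libraries correlated at -0.182 for A and -0.147 for B, across genes. Levels per transcript length were not run, since exon lengths were not used here.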

Other observations

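The complement gene Cfhr2, chosen after its values were seen, was detected almost only in the libraries lettered A, in both groups. Its estimated counts were 271, 0 and 3 in blue A, B and C, against 207 and 0 in natural A and B (log2 fold change -0.05, adjusted p = 0.994 in edgeR). Itgam, the alpha chain of complement receptor CR3, stood at 91.2, 47.1 and 33.8 CPM in the blue libraries, against 48.8 and 57.0 CPM in the natural libraries, so that blue A was the highest and blue C the lowest of the 5 libraries.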
